A study of Mus musculus with 12 samples.

Results

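The comparison described here was Hp1bp3 knockdown (KD) against a scrambled control (Ctrl) in the hippocampus of C57BL/6J (B6) mice. It rested on 6 of the 12 mRNA libraries of the study, the 3 labelled with strain C57BL/6J and treatment AAV9-shRNA-Hp1bp3 and the 3 labelled with that strain and the scrambled hairpin. The other 6 libraries came from DBA/2J (D2) mice given the same viruses. All B6 mice were males of 3 to 5 months that received an adeno-associated virus of serotype 9 (AAV9) in the hippocampus and were killed at least 6 weeks later. KD mice and Ctrl mice thus both carried a virus and a hairpin RNA, and an uninjected group was not analysed here. The study's methods place the injection in the dorsal hippocampus on both sides, while RNA came from homogenate of the whole hippocampus, so each library mixed cells that the virus reached with cells that it did not. The promoter driving the hairpin was not given in the sources used here. In such bulk tissue, fewer cells of a type and less RNA per cell cannot be told apart. Nothing in the labels says whether mice shared a cage, a litter or a day of injection, so p-values measured only the spread between libraries. The main fit across all genes estimated that spread from all 12 libraries, D2 included. The exact permutation tests used the 6 B6 libraries alone.

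Hp1bp3 encodes heterochromatin protein 1 binding protein 3, a chromatin protein related to the linker histones that binds nucleosomes and associates with compact heterochromatin. Among the gene lists used here, the antiviral effectors and the interferon-inducible GTPases had the highest median log2 fold changes (3.45 and 2.64). What set off their rise was not tested. Interferon is a signal of the innate response to nucleic acids. In that response, sensors in the cytosol and in endosomes recognise foreign or misplaced RNA and DNA, and their adaptors switch on interferon genes. Secreted interferon binds a receptor that activates factors of the STAT and IRF families, and these bind a short element, the interferon-stimulated response element (ISRE), in front of antiviral genes. Microglia, the resident macrophages of the brain, and astrocytes are both able to sense and answer such signals.

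Library totals in B6 were 37.6 M, 25.95 M and 36.2 M expected counts in Ctrl and 34.7 M, 21.8 M and 39.4 M in KD. Their means of 33.2 M and 31.96 M did not differ beyond the spread (exact permutation p = 0.8, 2-sided). Neuronal markers were abundant in every library, with 6026 to 7499 CPM (counts scaled to a fixed library size) summed over 10 general neuronal genes, and so were 14 markers of hippocampal subfields, with 806 to 1105 CPM. Markers of choroid plexus epithelium, a ventricular tissue next to the hippocampus, were uneven. Their 14 tested members summed to 261, 4301 and 443 CPM in Ctrl and to 439, 6751 and 7865 CPM in KD. Libraries Ctrl 2, KD 2 and KD 3 were rich in these markers, whose part in the results was tested only as a covariate, and the first principal component of the 6 libraries (52.0% of the variance) placed Ctrl 2 at -7.78, between Ctrl 1 and Ctrl 3 at -32.9 and -35.1 and the KD libraries at 10.4 to 33.6.

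Hp1bp3 (ENSMUSG00000028759, chromosome 4) was reduced but far from absent. Normalized counts were 9372, 8826 and 9348 in Ctrl and 5539, 5429 and 7633 in KD. Every KD library lay below every Ctrl library, and KD 3 kept the most transcript. The means of 9182 ± 308 and 6200 ± 1242 (SD, n = 3 each) put KD at 67.5% of Ctrl. With 3 libraries against 3, the exact 2-sided permutation p was 0.1, the smallest that this design allows. In the fit across all genes the log2 fold change was -0.54 ± 0.15 (SE; edgeR quasi-likelihood adjusted p = 0.076), so the target itself did not pass the threshold of 0.05. It passed in DESeq2 (adjusted p = 0.00825), in edgeR without KD 3 (log2 fold change -0.76, adjusted p = 0.0226) and in edgeR without the library labelled D2 KD 3 (adjusted p = 0.0469). Among proteins that act with it on chromatin, the HP1 proteins, linker histones and H3K9 methylation enzymes had 0 of 16 tested members called by edgeR (3 at an unadjusted p under 0.05) and 1 called higher by DESeq2, at a median log2 fold change of -0.07.

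**Figure D1:**
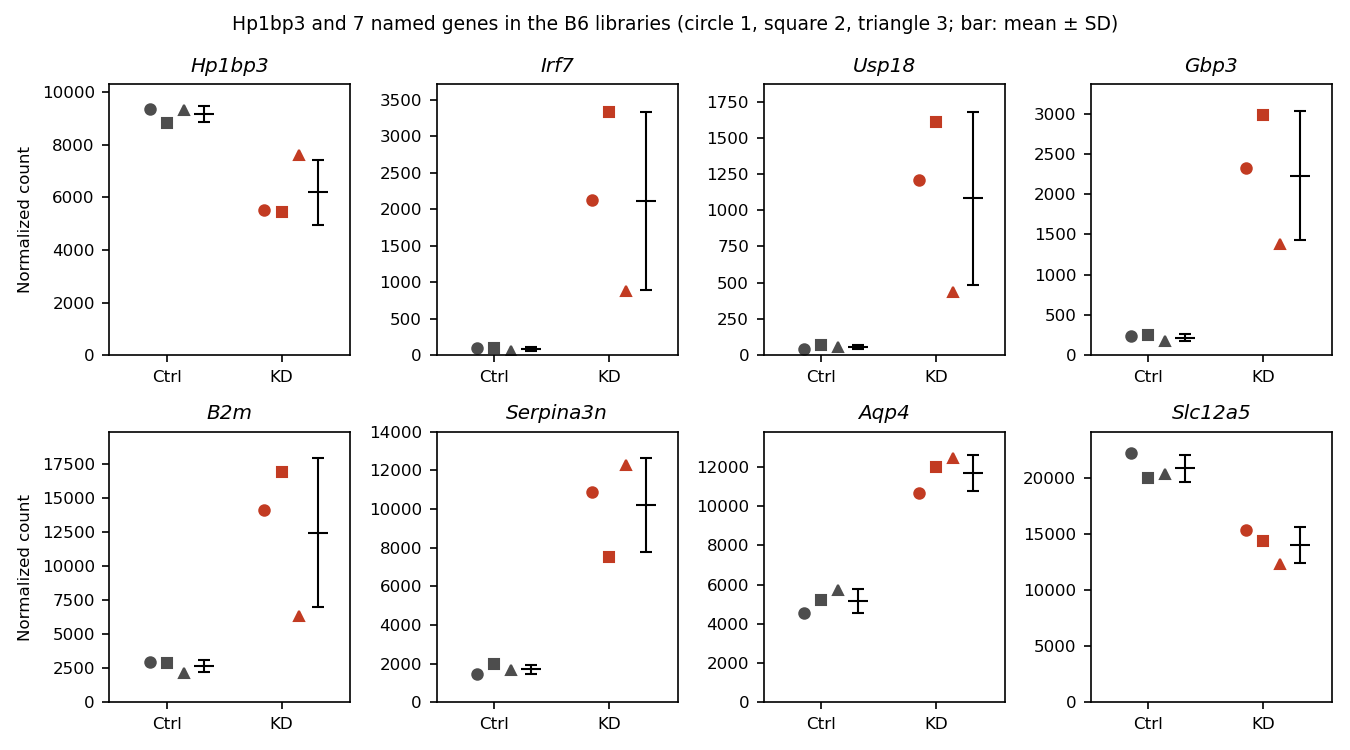
Normalized counts of Hp1bp3 and 7 named genes in each B6 library, Ctrl in grey and KD in red, with circles, squares and triangles for libraries 1, 2 and 3 and bars for the mean ± SD of 3 libraries. Hp1bp3 is lower in all KD libraries and least so in KD 3, Irf7, Usp18, Gbp3 and B2m are highest in KD 2 and lowest among KD in KD 3, Serpina3n and Aqp4 are highest in KD 3, and Slc12a5 is lower in all KD libraries.

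Of 15853 genes tested, 418 (2.64%) were called at an adjusted p under 0.05, 279 (1.76%) higher and 139 (0.877%) lower in KD. All 418 adjusted p-values lay between 0.0326 and 0.04996, so every call was close to the threshold, while 3262 genes had an unadjusted p under 0.05. Rises were large and falls small. Genes called higher had a median log2 fold change of 1.83 (0.37 to 6.39), 129 of them rose at least 4-fold and 58 at least 8-fold. Genes called lower had a median of -0.54 (-2.21 to -0.27), and 7 of them fell at least 2-fold. They were also more abundant, with a median mean level of 90.05 CPM against 10.9 CPM for the genes called higher, a level that includes the KD libraries. In all 418 the KD and Ctrl libraries did not overlap. That separation alone was common, since 12.6% of all genes tested had every KD library above every Ctrl library and 16.2% had every KD library below.

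The number of calls was not stable. DESeq2 called 1688 genes, limma-voom 368 and a fit of the B6 libraries alone 292. With the library total as a covariate 0 genes were called by edgeR (3068 at an unadjusted p under 0.05), and with the choroid plexus score as a covariate 0 were called (2828 at an unadjusted p under 0.05). Leaving out KD 2 gave 0 calls (2609 at an unadjusted p under 0.05), leaving out Ctrl 2 gave 237, and leaving out KD 3, the library with the most remaining Hp1bp3, gave 790. Counts of list members called, given below, fell to 0 in the same fits. Without 1 library the list medians moved to different degrees, from 3.08 to 3.79 for the antiviral effectors, from 1.27 to 2.43 for activated microglia, from -0.71 to -0.03 for immediate early genes and from 1.15 to 4.44 for choroid plexus epithelium. All 418 genes kept their direction and an unadjusted p under 0.05 in each of the 6 fits without 1 B6 library and with either covariate. They had been chosen for small p-values in the main fit, and these fits reused its libraries, so this gave no independent support. In 143 of the 418, 102 of these higher, the call was also made in each of 8 other settings. Those changed the tool, its options, the normalization, the filter or the counts, or left out D2 as a whole. Of the 418, 0 were called by edgeR without D2 Ctrl 1 (3256 genes at an unadjusted p under 0.05), 45 without D2 Ctrl 2 and 120 without D2 KD 1.

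**Figure D2:**
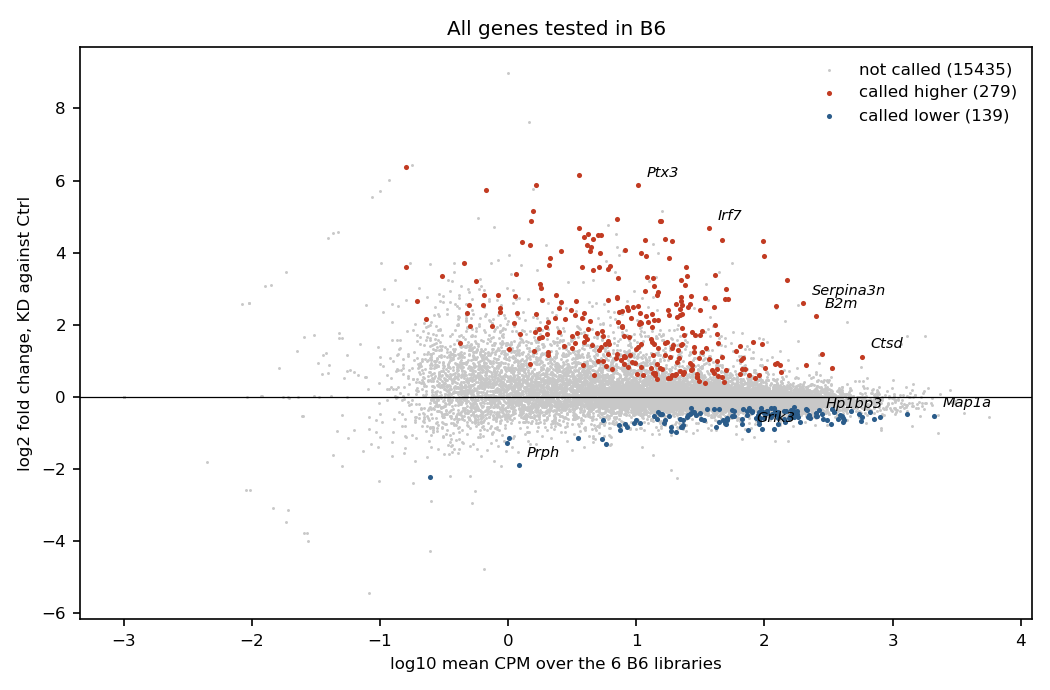
log2 fold change of KD against Ctrl (vertical axis) against log10 of the mean CPM over the 6 B6 libraries (horizontal axis) for all 15853 genes tested, with the 279 genes called higher in red, the 139 called lower in blue and the rest in grey. Red points spread up to 6.39 at low and middle levels, and blue points form a band just below 0 at higher levels.

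KD libraries differed among themselves in how far genes rose. Of the 279 genes called higher, 191 had their highest KD level in KD 2 and 189 their lowest in KD 3. The median ratio of the highest to the lowest KD library was 1.89, against 1.40 among Ctrl libraries. Genes called lower showed no such spread, with median ratios of 1.13 in KD and 1.16 in Ctrl. The smaller rises in KD 3 stood beside its higher Hp1bp3 count, but with 3 KD libraries a relation between them was not tested.

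A short stretch of promoter sequence is shown for some genes of the interferon response that are described below, chosen because each held the same element. Windows came from RefSeq on build GRCm38.p6 and were searched over 250 bases before the gene start, on both strands, for the ISRE core GAAANNGAAA and for the STAT element TTCNNNGAA. A window was matched for 43 of the 57 genes called higher that the naming rule chose, and 9 of them held the ISRE core. Tgm1, described below with the reactive astrocyte genes, was among these 9. It stood in 2.98% of all 32851 windows of the table, and the STAT element in 7.02%. Since fewer than 80% of these genes, and of all genes tested (79.5%), had a window, no comparison of shares was made. Capitals mark matches to the ISRE core in either orientation, adjoining matches run together, and each line is 60 bases of the gene's own strand written 5′ to 3′. Gbp7 and Gbp3 encode guanylate-binding proteins, Tgtp1 an immunity-related GTPase, Oas3 an oligoadenylate synthetase, B2m the light chain of MHC class I, and Apol9b an apolipoprotein L.
Gbp7 (chr3:142530258-142530317, + strand): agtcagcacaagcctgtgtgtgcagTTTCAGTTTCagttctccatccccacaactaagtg
Gbp3 (chr3:142559980-142560039, + strand): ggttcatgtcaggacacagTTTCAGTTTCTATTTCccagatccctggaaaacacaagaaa
Tgtp1 (chr11:48992289-48992348, - strand): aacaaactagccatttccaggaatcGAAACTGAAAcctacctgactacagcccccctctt
Oas3 (chr5:120777700-120777759, - strand): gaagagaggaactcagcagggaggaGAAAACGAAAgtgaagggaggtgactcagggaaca
B2m (chr2:122147523-122147582, + strand): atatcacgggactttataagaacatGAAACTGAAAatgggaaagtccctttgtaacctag
Apol9b (chr15:77729016-77729075, + strand): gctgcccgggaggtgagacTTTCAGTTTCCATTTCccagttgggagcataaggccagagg
The printed matches began 53 bases before the listed start of Gbp7, 39 before that of Gbp3, 77 before Tgtp1, 75 before Oas3, 139 before B2m and 80 before one of the listed starts of Apol9b. A match of letters does not show that a factor binds there.

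Sensors of foreign RNA and DNA rose in KD. In the list of nucleic acid sensors and their adaptors 9 of 17 tested members were called higher and 0 lower, at a median log2 fold change of 1.14 against 0.0025 for all genes tested. Zbp1, which recognises Z-form nucleic acid and can trigger necroptosis, had normalized counts of 18.04, 11.5 and 10.5 in Ctrl and 366, 719.9 and 138 in KD. The KD libraries stood far apart from each other but all were above Ctrl, and the log2 fold change was 4.92 ± 0.99 (SE). Ddx58, which encodes the RNA sensor RIG-I, was at 231, 324 and 248 in Ctrl and 1895, 2554 and 876 in KD, a change of 2.75 ± 0.44. Its relatives Ifih1, which encodes MDA5, and Dhx58, which encodes LGP2, changed by 2.67 ± 0.47 and 2.74 ± 0.54. All of these cytosolic sensors were highest in KD 2 and, among KD, lowest in KD 3. Membrane sensors were called as well. Tlr2, Tlr7 and Tlr3, receptors for bacterial lipoprotein, single-stranded RNA and double-stranded RNA, changed by 2.35, 1.69 and 0.89 on the log2 scale. The adaptors Pycard, which builds inflammasomes, and Myd88, which serves most Toll-like receptors, changed by 1.5 and 0.96.

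Interferon transcripts themselves were not detected as raised. Ifnb1 and Ifna4 had 0 counts in all 6 libraries, a level that allows up to 3 counts in each, and Ifng reached at most 2 counts, in KD 1. Of the 7 tested genes of this list 0 were called by edgeR (2 at an unadjusted p under 0.05) and 2 were called higher by DESeq2, at a median of 0.10. Ifnar2, a subunit of the type I interferon receptor, was at 525, 686 and 518 in Ctrl and 821, 821 and 793 in KD, above Ctrl in all KD libraries, with a log2 fold change of 0.52 ± 0.15 and an adjusted p of 0.0864.

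Factors that carry the interferon signal to the nucleus rose. Among STAT and IRF factors and their feedback inhibitors, 6 of 13 tested members were called, all higher, at a median of 1.53. Irf7, the factor that amplifies interferon production, had normalized counts of 92.7, 100.01 and 57.5 in Ctrl and 2132, 3328 and 883 in KD, a change of 4.69 ± 0.71. Usp18, which shuts the receptor down, was at 40.2, 70.1 and 54.9 in Ctrl and 1206, 1609 and 435 in KD, a change of 4.32 ± 0.79. Stat2 and Irf9, which carry the signal of the receptor, changed by 1.40 ± 0.22 and 1.73 ± 0.32, and Irf8, a factor of microglia and other myeloid cells, by 1.61 ± 0.35. For each of these genes the highest library was KD 2 and the lowest KD library KD 3.

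Antiviral effectors formed the largest block of calls. Of 33 tested members 27 were called higher and 0 lower, against 1.76% of all genes tested called higher, and the median log2 fold change was 3.45. In 30 of the members (90.9%) every KD library was above every Ctrl library, against 12.6% of all genes tested. In 1 member every KD library was below every Ctrl library. Ifi27l2a, an interferon-induced membrane protein, was at 19.7, 54.03 and 19.2 in Ctrl and 886, 1346 and 425 in KD and changed by 4.89 ± 0.80. Ifi44 was at 38.5, 40.2 and 14.8 in Ctrl and 924, 1469.9 and 323 in KD, with a change of 4.88 ± 0.96. The oligoadenylate synthetases make a second messenger that activates RNase L. Oas3 was at 8.2, 18.4 and 10.5 in Ctrl and 282, 527 and 52.7 in KD and Oas1g at 9.84, 4.6 and 6.97 in Ctrl and 210.2, 342 and 63.9 in KD, changes of 4.50 ± 0.81 and 4.69 ± 0.99, and Oasl1, a relative, changed by 4.43 ± 1.00. Reads of the Oas genes could be split among near-identical copies, so single members are uncertain. Several effectors with smaller rises were among the genes with the smallest p-values. Eif2ak2, which encodes the kinase PKR that halts translation on double-stranded RNA, was at 248, 333 and 314 in Ctrl and 1845, 2024 and 816 in KD, a change of 2.40 ± 0.32. Ifitm3, which blocks the entry of viruses through membranes, changed by 2.99 ± 0.44, Zc3hav1, which targets viral RNA for decay, by 1.73 ± 0.25, Trim21, a cytosolic antibody receptor, by 2.19 ± 0.31 and Ifi35 by 2.37 ± 0.35. In 30 of the 33 members KD 2 was the highest of the KD libraries and KD 3 the lowest. The 6 members not called were Ifit2, Ifit3b (I830012O16Rik in the files), Ifitm2, Cmpk2, Samhd1 and Adar.

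Interferon-inducible GTPases, which attack membranes around intracellular pathogens, rose with them. Of 16 tested members 12 were called higher and 0 lower, at a median of 2.64, and the estimates of all 16 were above 0. Gbp3 was at 235, 247 and 171 in Ctrl and 2323, 2978 and 1385 in KD, a change of 3.38 ± 0.55. Gbp7, whose promoter window is printed above, was at 232, 238 and 210.1 in Ctrl and 1374, 1832 and 792 in KD, a change of 2.57 ± 0.37. Among immunity-related GTPases, Tgtp1 was at 82.01, 124 and 19.2 in Ctrl and 431, 1228 and 542 in KD, Ifi47 at 59.05, 37.9 and 23.5 in Ctrl and 299, 725 and 153 in KD and Iigp1 at 168, 125 and 91.5 in Ctrl and 1209, 1733 and 683 in KD, with changes of 3.31 ± 0.72, 3.30 ± 0.71 and 3.25 ± 0.68. The Ctrl libraries were themselves uneven here, with Tgtp1 lowest in Ctrl 3. For Tgtp1 and the Gbp genes, reads may be divided among closely related copies.

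Some of the largest rises came from genes that were almost silent in Ctrl. Apol9b had at most 3 counts in each Ctrl library and normalized counts of 69.5, 181 and 39.4 in KD, at least 33.96-fold higher than that limit averaged over the Ctrl libraries. Its near-identical neighbour Apol9a was at 2.46, 1.15 and 1.74 in Ctrl and 65.3, 183 and 23.03 in KD, and reads of both genes are hard to tell apart. Slfn4, a Schlafen gene of myeloid cells, was at 2.46, 4.6 and 1.74 in Ctrl and 142, 475 and 7.43 in KD, so that KD 3 was barely above Ctrl, and its change of 6.15 ± 1.39 had a wide error. Ms4a4c, a membrane protein of immune cells, was at 0.82, 4.6 and 3.49 in Ctrl and 73.8, 168 and 20.8 in KD, a change of 4.89 ± 1.05.

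Presentation of antigen on MHC class I also rose. Of 17 tested members 11 were called higher and 0 lower, at a median of 2.02, and all 17 had every KD library above every Ctrl library, against 12.6% of all genes tested. B2m, the shared light chain, was among the most abundant risers at 2981, 2890.0 and 2174 in Ctrl and 14121, 16900.3 and 6326 in KD, a change of 2.23 ± 0.49. H2-Q7, a non-classical heavy chain, was at 182, 183 and 86.3 in Ctrl and 1405, 2052 and 376 in KD and changed by 3.10 ± 0.65. Heavy chains are near-identical and polymorphic, so counts may be shared among them. Nlrc5, the transactivator of these genes, changed by 2.93 ± 0.63. The peptide transporter Tap1, the immunoproteasome subunit Psmb8 and the trimming peptidase Erap1 changed by 2.59 ± 0.49, 2.28 ± 0.48 and 1.36 ± 0.19. For MHC class II, which marks professional antigen-presenting cells, 1 of 8 tested members was called, H2-DMb1 (1.42 ± 0.32), and the median was 1.54. H2-Ab1, a class II chain, was at 104, 106 and 17.4 in Ctrl and 229.7, 411 and 247 in KD, above Ctrl in all KD libraries, with a change of 1.99 ± 0.59 and an adjusted p of 0.0915.

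**Figure D3:**
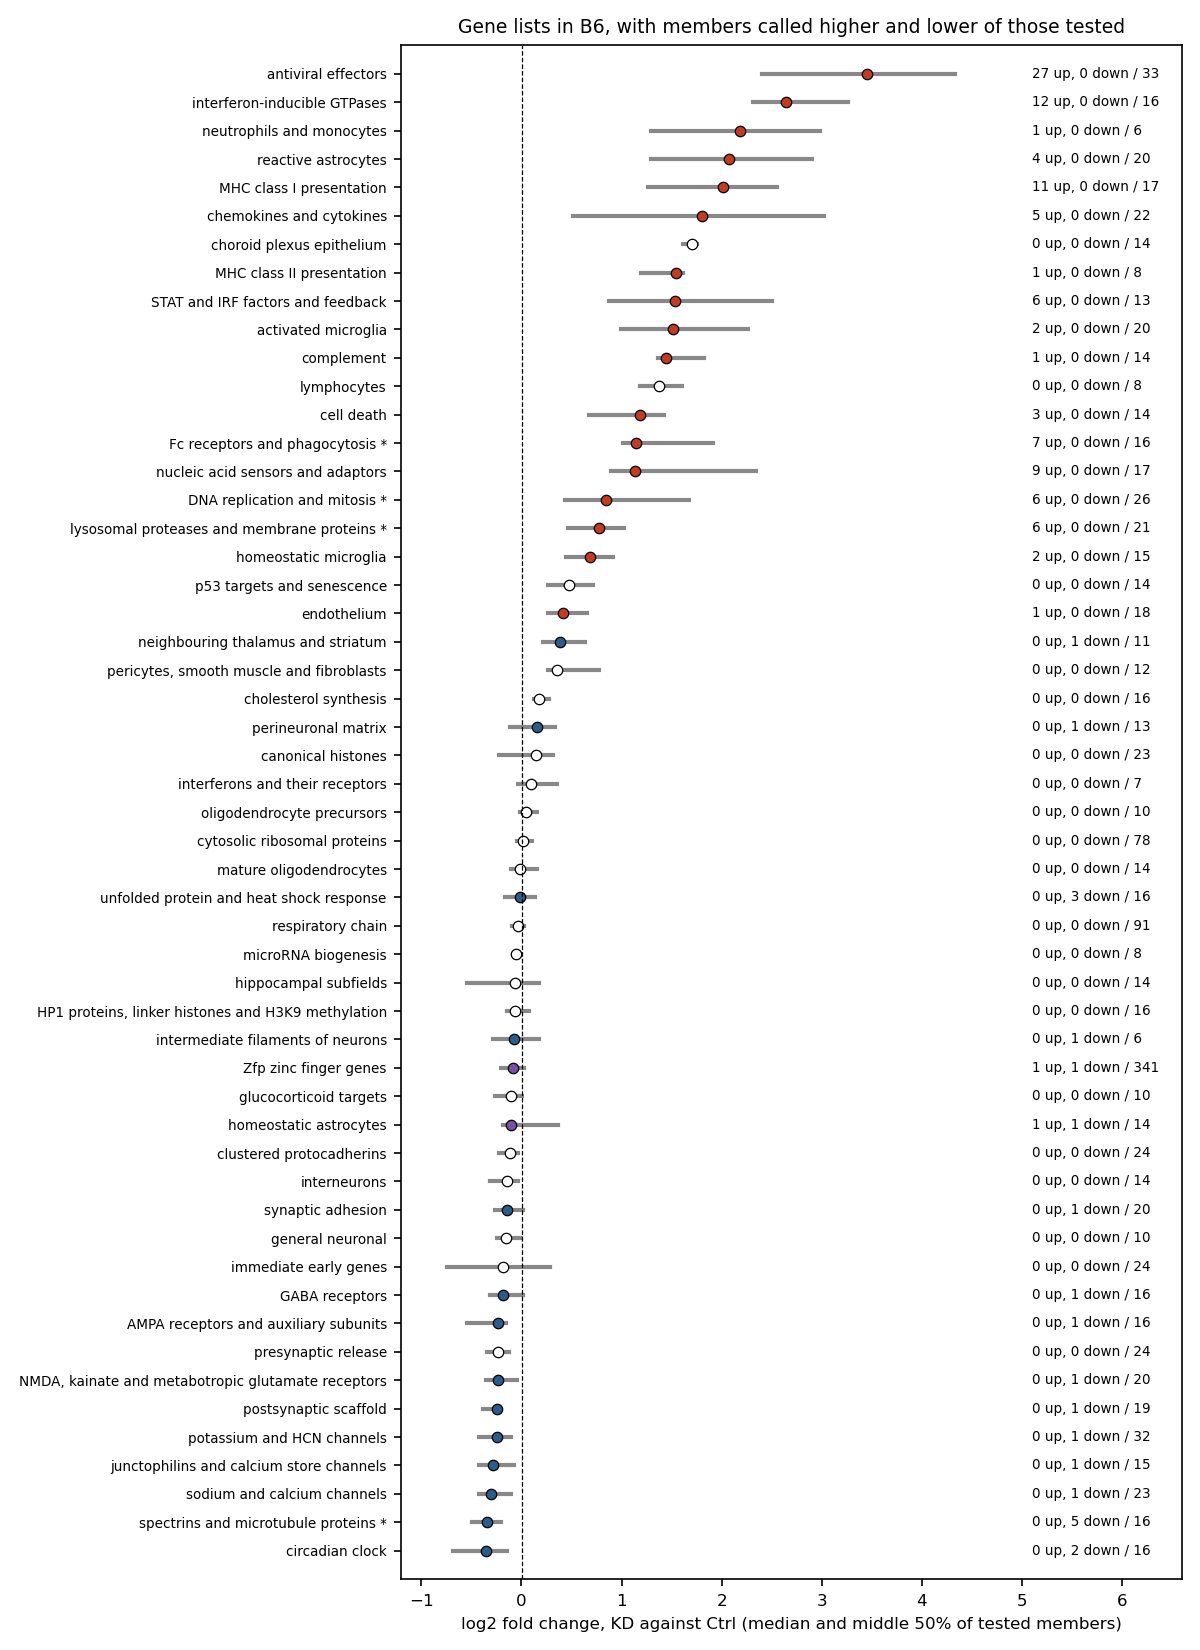
Median log2 fold change of KD against Ctrl in B6 for the tested members of each gene list (points) with the middle 50% of members (grey bars), beside the number called higher and lower of those tested. Points are red where members were called higher, blue where called lower, purple where both, white where none, the dashed line is the median of all genes tested, and an asterisk marks the 4 lists drawn up after these values were seen. The sensor, STAT and IRF, antiviral, GTPase and MHC lists lie between 1.14 and 3.45, and most synaptic and channel lists lie between -0.30 and -0.15.

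Some secreted signals rose. Among 22 tested chemokines and cytokines 5 were called higher and 0 lower, at a median of 1.81. Ccl5 and Ccl12, attractants of T cells and monocytes, were at 9.84, 16.1 and 6.1 in Ctrl and 239, 465 and 21.5 in KD and at 18.9, 10.3 and 8.72 in Ctrl and 107, 285 and 311 in KD. They differed in order, since Ccl5 was highest in KD 2 and low in KD 3, while Ccl12 was highest in KD 3, and they changed by 4.52 ± 1.05 and 4.21 ± 0.77. Il1a, an early inflammatory cytokine, was at 27.1, 12.7 and 24.4 in Ctrl and 53.4, 115 and 75.8 in KD, a change of 1.88 ± 0.38. Il1b, another, was at 4.1, 5.75 and 4.36 in Ctrl and 27.1, 56.3 and 19.3 in KD, a change of 2.83 ± 0.65. Tnf had at most 3 counts in each Ctrl library and normalized counts of 11.02, 18.3 and 20.8 in KD, at least 5.88-fold higher than that limit averaged over the Ctrl libraries. Of 14 complement genes 1 was called, C1ra, a protease of the first component, at 69.7, 153 and 62.8 in Ctrl and 436, 450.3 and 211 in KD and 1.96 ± 0.45. All 14 estimates were above 0, at a median of 1.445. In 71.4% of the list every KD library was above every Ctrl library, against 12.6% of all genes tested. Settings that left out no single library called 0 to 10 of the complement genes higher. The C1q chains C1qa and C1qb, which are made by microglia in the brain, had every KD library above every Ctrl library and changes of 1.63 ± 0.42 and 1.41 ± 0.38, with adjusted p of 0.0637 and 0.0683.

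Few microglial markers passed the test, though a larger share than of all genes tested (2.64%). Among 15 homeostatic markers 2 were called (13.3%), both higher, and all 15 estimates were above 0, at a median of 0.68. In 66.7% of them every KD library was above every Ctrl library, against 12.6% of all genes tested. Itgam, the CD11b integrin, was at 936, 871 and 871 in Ctrl and 2126, 2230.3 and 1276 in KD, a change of 1.09 ± 0.23. Olfml3, a secreted microglial protein, was at 695, 862 and 621 in Ctrl and 1530.0, 1444 and 1462 in KD, a change of 1.05 ± 0.18 with even values in the KD libraries. Among 20 markers of activated microglia 2 were called (10.0%), at a median of 1.51, and in 65.0% every KD library was above every Ctrl library. Settings that left out no single library called 0 to 9 of the homeostatic and 0 to 14 of the activated markers higher. Lgals3bp, a secreted galectin ligand that interferon also induces, was at 837, 1112 and 625 in Ctrl and 7583, 11306 and 5260.4 in KD and changed by 3.25 ± 0.51. Ctsd, the lysosomal protease cathepsin D, was the most abundant gene called higher, at 9951, 13649.9 and 9525 in Ctrl and 26531, 25661 and 18436 in KD, a change of 1.11 ± 0.26. Summed over the homeostatic list, KD libraries held 1012, 950.5 and 659 CPM against 505 to 567 CPM in Ctrl.

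Lists of Fc receptors and phagocytosis, of the lysosome and of the cell cycle were drawn up after the values were seen, and their counts are given as descriptions. Of 16 Fc receptors and phagocytosis genes 7 were called higher and 0 lower. Fcgr4, an activating receptor for IgG, was at 11.5, 10.3 and 4.36 in Ctrl and 143, 189.8 and 101 in KD and changed by 4.06 ± 0.65. Fcgr1 and Fcgr2b, the high-affinity and the inhibitory IgG receptor, changed by 2.01 and 2.05, and Siglec1, a sialic acid receptor of macrophages, by 2.70. Of 21 lysosomal proteases and membrane proteins 6 were called higher and 0 lower. These were Ctsd, Ctsc (1.38), Lamp2 (0.90), Ctsl (0.90), Aga (0.77) and Lgmn (0.68), on the log2 scale, enzymes and a membrane protein of the lysosome. Of 26 genes of DNA replication and mitosis 6 were called higher and 0 lower. Cdk1, the kinase that starts mitosis, was at 8.2, 6.9 and 3.49 in Ctrl and 66.1, 26.2 and 39.4 in KD, and Mcm3, a subunit of the replicative helicase, at 124, 97.7 and 109 in Ctrl and 231, 192 and 226 in KD. Aurkb, Kif2c and Ect2, which act on chromosomes and at cell division, and Uhrf1, which copies DNA methylation, changed by 2.56, 1.97, 1.34 and 1.16. These transcripts were scarce, and Cdk1, Aurkb, Ect2 and Mcm3 were highest in KD 1, unlike most interferon genes.

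Markers of blood-borne cells were low in every library. Of 22 lymphocyte genes 8 had enough counts to be tested and 0 of these were called by edgeR (6 at an unadjusted p under 0.05) and 1 was called higher by DESeq2, at a median of 1.37. The T cell receptor chain Cd3e had 0, 2 and 0 counts in Ctrl and 27, 31 and 9 in KD, too few to be tested. The tested lymphocyte list summed to 8.50 to 11.2 CPM in Ctrl and to 28.3, 42.4 and 14.3 CPM in KD. Ptprc, the leukocyte antigen CD45 that microglia also carry, was at 144, 229 and 147 in Ctrl and 611, 935 and 291 in KD, a change of 1.84 ± 0.47 with an adjusted p of 0.0592. Of 6 tested neutrophil and monocyte genes 1 was called, Plac8, at 0.82, 10.3 and 0.87 in Ctrl and 75.4, 119 and 24.5 in KD and 4.30 ± 0.95. The part of blood-borne cells and of microglia in the rise of the interferon and antigen lists was not tested.

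Genes of reactive astrocytes peaked in another KD library. Of 20 tested markers 4 were called higher and 0 lower, all 20 estimates were above 0, and the median was 2.07. Serpina3n, a secreted protease inhibitor, was at 1493, 1963 and 1662 in Ctrl and 10881, 7544 and 12255 in KD and changed by 2.61 ± 0.35, among the smallest p-values of all genes. Ptx3, a soluble pattern receptor, was at 6.56, 14.9 and 10.5 in Ctrl and 48.3, 200.3 and 1546 in KD, a change of 5.87 ± 1.29 that KD 3 dominated. S1pr3, a sphingosine phosphate receptor, was at 318, 497 and 360.1 in Ctrl and 965, 1336 and 5274 in KD, and Tgm1, a transglutaminase, at 4.92, 18.4 and 17.4 in Ctrl and 101, 236 and 559 in KD, changes of 2.72 ± 0.62 and 4.50 ± 0.95. All 4 were highest in KD 3, the library in which most interferon genes were lowest among KD. Gfap, an intermediate filament of astrocytes that was already abundant in Ctrl, was at 17365, 20849.6 and 16723 in Ctrl and 63914, 34357 and 76728 in KD, above Ctrl in all KD libraries, with a change of 1.70 ± 0.52 and an adjusted p of 0.0981. On average over the list, the level was 1.88, 2.03 and 2.86 above the Ctrl mean on the log2 scale in KD 1, KD 2 and KD 3. The antiviral effectors, in the same order, were 3.23, 3.63 and 2.00 above it.

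Among 14 homeostatic astrocyte genes 1 was called higher and 1 lower, at a median of -0.11. Aqp4, the water channel of astrocyte endfeet, was at 4548, 5196 and 5748 in Ctrl and 10677, 11966 and 12428 in KD, a change of 1.2 ± 0.19. Slc6a11, the GABA transporter GAT-3, was at 5950.0, 5152 and 5144 in Ctrl and 3709, 3474 and 2715 in KD, a change of -0.69 ± 0.15. In both genes every KD library was apart from every Ctrl library.

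**Figure D4:**
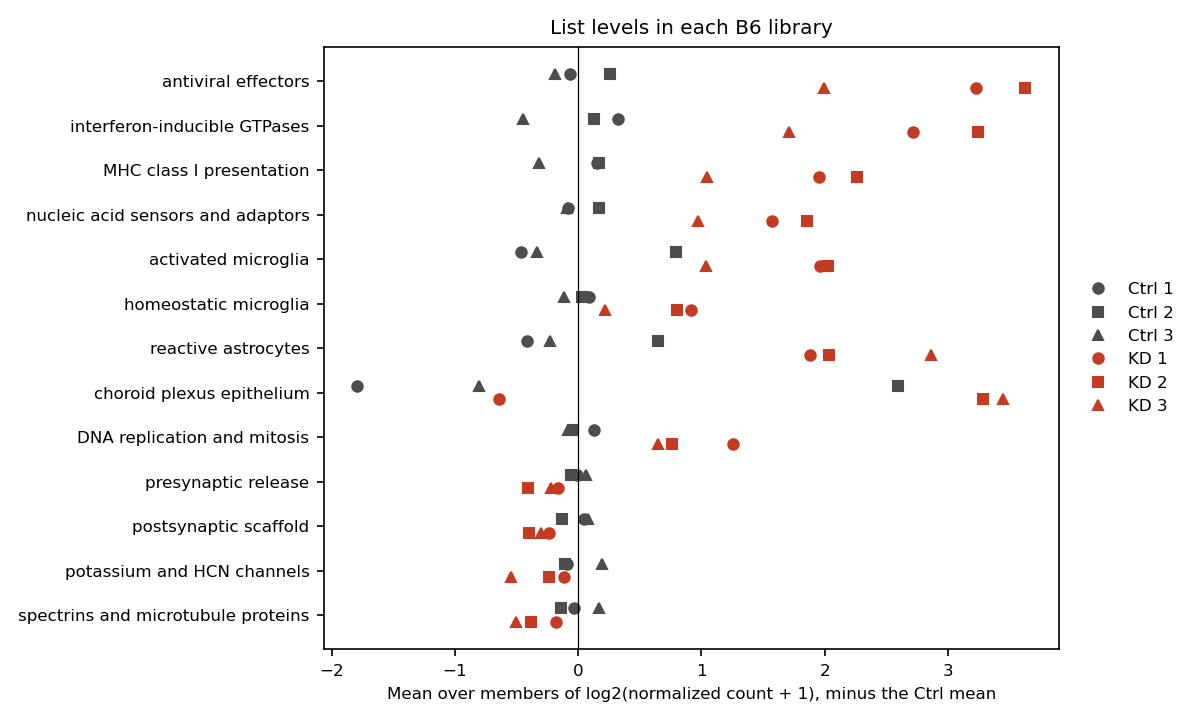
Level of 13 gene lists in each B6 library, as the mean over members of log2(normalized count + 1) minus the mean of the 3 Ctrl libraries, with Ctrl in grey and KD in red. Antiviral effectors run from 2.00 in KD 3 to 3.63 in KD 2, reactive astrocyte genes are highest in KD 3 at 2.86, choroid plexus genes overlap between groups, and the presynaptic, scaffold, potassium channel and spectrin lists sit slightly below Ctrl in all KD libraries.

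Lists of other cell types held 0 or 1 call each, where 2.64% of all genes tested were called. None of 14 mature oligodendrocyte genes, 10 oligodendrocyte precursor genes or 12 pericyte, smooth muscle and fibroblast genes was called by edgeR or DESeq2, and 1, 0 and 0 of them had an unadjusted p under 0.05. All 12 estimates of the pericyte, smooth muscle and fibroblast list were above 0, at a median of 0.36. Among 18 endothelial genes 1 was called (5.56%), Ly6a, which interferon also induces, at 474, 510.4 and 340.0 in Ctrl and 1593, 1835 and 825 in KD and 1.70 ± 0.32, while the tight junction gene Cldn5 changed by 0.43 ± 0.14 (adjusted p = 0.122). In this list 16 estimates were above 0 and 2 below, at a median of 0.41. In 38.9% of it every KD library was above every Ctrl library, against 12.6% of all genes tested. The choroid plexus genes had a median of 1.70 but 0 of 14 called by edgeR (0 at an unadjusted p under 0.05) or DESeq2 and no member whose groups were apart. Ttr, the transthyretin of that epithelium, was at 1465, 72291 and 3125 in Ctrl and 3113, 108899 and 132375 in KD. Among 11 markers of neighbouring thalamus and striatum 1 was called (9.09%), Tnnt1, at 41.01, 39.1 and 46.2 in Ctrl and 21.2, 14.4 and 20.1 in KD and -1.14 ± 0.25. That list went the other way, with 9 estimates above 0 and 2 below, at a median of 0.39.

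Genes of cell death included 3 of 14 called higher and 0 lower, at a median of 1.19. Mlkl, the executioner of necroptosis, was at 7.38, 9.2 and 6.97 in Ctrl and 33.9, 77.2 and 19.3 in KD and changed by 2.46 ± 0.55. Casp8, which restrains necroptosis and starts apoptosis, was at 92.7, 153 and 86.3 in Ctrl and 227, 266 and 247 in KD, and Ripk1, the kinase upstream of both, at 208, 276 and 232 in Ctrl and 356, 398 and 343 in KD, changes of 1.18 ± 0.25 and 0.64 ± 0.13. None of 14 p53 targets and senescence genes was called by edgeR, while 10 had an unadjusted p under 0.05, DESeq2 called 3 higher and all 14 estimates were above 0 (median 0.47). Cdkn1a, the cell cycle inhibitor p21, was at 360.0, 314 and 261 in Ctrl and 548, 685 and 1092 in KD, a change of 1.34 ± 0.39 with an adjusted p of 0.0871.

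Members of the neuronal lists that passed the test were all lower, and all but Prph fell less than 2-fold. The neuronal lists together held 228 tested genes, of which 0 were called higher and 10 lower (4.39%, against 0.877% of all genes tested called lower). Estimates were below 0 for 179 of them, 78.5%, against 49.4% of all genes tested, and 34.6% had every KD library below every Ctrl library, against 16.2%. The median was -0.23. Immune transcripts rose in the same libraries, and their part in these falls was not tested.

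At the synapse, 4 genes in the lists of receptors and of the postsynaptic scaffold were called lower. Grik3, a kainate receptor subunit, was at 3385, 2669 and 2841 in Ctrl and 1734, 1453 and 1442 in KD and changed by -0.92 ± 0.16, the largest of them. Shisa7, an auxiliary protein of AMPA and GABA receptors, was at 9358, 7331 and 8100.0 in Ctrl and 5835, 5349 and 5196 in KD, a change of -0.57 ± 0.12. Slc12a5, which encodes the chloride transporter KCC2 that makes GABA inhibitory, was at 22246, 20012 and 20321 in Ctrl and 15390.2, 14374 and 12292 in KD, a change of -0.55 ± 0.09. Iqsec2, an exchange factor of the postsynaptic density, changed by -0.38 ± 0.08. The principal subunits of AMPA and NMDA receptors were not called. Of 24 presynaptic release genes 0 were called by edgeR (5 at an unadjusted p under 0.05) and 5 were called lower by DESeq2, at a median of -0.23 with 22 estimates below 0. Among adhesion genes 1 of 20 was called, Flrt1, at 1298, 1259.9 and 1183 in Ctrl and 876, 849 and 659.6 in KD and -0.63 ± 0.11.

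Channel lists held 1 call each, where 2.64% of all genes tested were called and 0.877% were called lower. Of 32 potassium and HCN channel genes 1 (3.12%) was called lower, Kcnab2, a beta subunit of Kv1 channels, at 21408, 19715 and 21397 in Ctrl and 12059, 11828 and 15027 in KD and -0.66 ± 0.15. Of 23 sodium and calcium channel genes 1 (4.35%) was called lower, Cacnb3, a calcium channel beta subunit, at 6957, 5488 and 5861 in Ctrl and 4109, 3798 and 4288 in KD and -0.56 ± 0.12. The medians of these lists were -0.25 and -0.30. Jph3, a junctophilin that ties the endoplasmic reticulum to the plasma membrane, and Bcan, the matrix proteoglycan brevican, were the called members of their lists, at -0.54 and -0.68. The list of Jph3 had a median of -0.28. The matrix list of Bcan went the other way, at a median of 0.16 with 9 of 13 estimates above 0 and 4 below. Prph, the intermediate filament peripherin, had the largest fall among the called members of the neuronal lists, from low counts of 70.5, 54.03 and 47.95 in Ctrl and 20.3, 13.1 and 11.9 in KD, a change of -1.89 ± 0.34.

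Of 24 immediate early genes 0 passed in edgeR (8 at an unadjusted p under 0.05), and DESeq2 called 2 higher and 2 lower, at a median of -0.18. Arc, a regulator of synaptic strength, was at 4335, 5679 and 5215 in Ctrl and 2343, 1708 and 2411 in KD, with a change of -1.21 ± 0.30 and an adjusted p of 0.0556. General neuronal markers (0 of 10 called), subfield markers (0 of 14) and interneuron markers (0 of 14) gave no calls by edgeR, with 2, 3 and 4 members at an unadjusted p under 0.05. DESeq2 called 2 general and 3 subfield markers lower, and 1 interneuron marker higher and 2 lower. Rbfox3, the NeuN antigen, was at 8641, 7095 and 7656 in Ctrl and 5674, 4572 and 6112 in KD, and Snap25, of the release machinery, at 56393, 56292 and 58079 in Ctrl and 50139, 46494 and 52539 in KD, both below Ctrl in every KD library, with changes of -0.49 ± 0.16 and -0.17 ± 0.10 and adjusted p of 0.118 and 0.337.

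Genes of the axonal and dendritic skeleton, listed after their values were seen, had 5 of 16 members called lower and 0 higher, at a median of -0.34. Map1a, a microtubule-associated protein of mature neurons, was the most abundant gene called lower, at 76498, 72849 and 75428 in Ctrl and 55131, 51227 and 47542 in KD, a change of -0.52 ± 0.10. Sptb and Sptbn4, beta spectrins of the membrane skeleton, changed by -0.60 ± 0.14 and -0.46 ± 0.09, and Kifc2, a kinesin, by -0.64 ± 0.13. Trak2, an adaptor that couples mitochondria to motors, went the other way, at 6670.0, 6928 and 8607 in Ctrl and 13060.0, 12585 and 12235 in KD, a change of 0.79 ± 0.16.

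The genes with the smallest p-values among the falls came from several functions. Pnkd was at 5680.1, 5437 and 5697 in Ctrl and 3441, 3859 and 3732 in KD, Caskin1, a binding partner of the synaptic kinase CASK, at 7365, 5912 and 6569 in Ctrl and 4177, 4814 and 4232 in KD, and Phyhip at 16406, 14409 and 15543 in Ctrl and 10564, 9616 and 9187 in KD. They changed by -0.59 ± 0.09, -0.56 ± 0.09 and -0.64 ± 0.11. Sema4f and Sema5b, membrane semaphorins of axon guidance, changed by -0.58 ± 0.10 and -0.73 ± 0.13, Emx2, a homeobox factor of the developing cortex and hippocampus, by -0.62 ± 0.11, Vstm2a by -0.45 ± 0.08, Pitpnm3 by -0.61 ± 0.11 and Rpusd1, a pseudouridine synthase, by -0.61 ± 0.10. The uncharacterised B230217C12Rik and E130309D14Rik changed by -0.78 and -0.44. Other large falls were those of Panx2, a pannexin channel, at 4003, 3748 and 3445 in Ctrl and 2269, 2025 and 1638 in KD (-0.89 ± 0.19), of Etv4, an ETS factor, at 349, 256 and 279 in Ctrl and 125, 145 and 192 in KD (-0.91 ± 0.18), and of Tom1, an endosomal sorting protein, at 872, 700.1 and 862 in Ctrl and 258, 398 and 565 in KD (-0.97 ± 0.22). The KD libraries of Tom1 spread widely, and its highest KD library stayed below every Ctrl library. Alox12b, Rnf207 and Sypl2 changed by -1.32, -1.17 and -1.13 from lower counts. Among abundant genes, Tspan7, a tetraspanin of neurons, Fbxl16 and Thra, a thyroid hormone receptor, changed by -0.55 ± 0.11, -0.61 ± 0.12 and -0.43 ± 0.09.

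**Figure D5:**
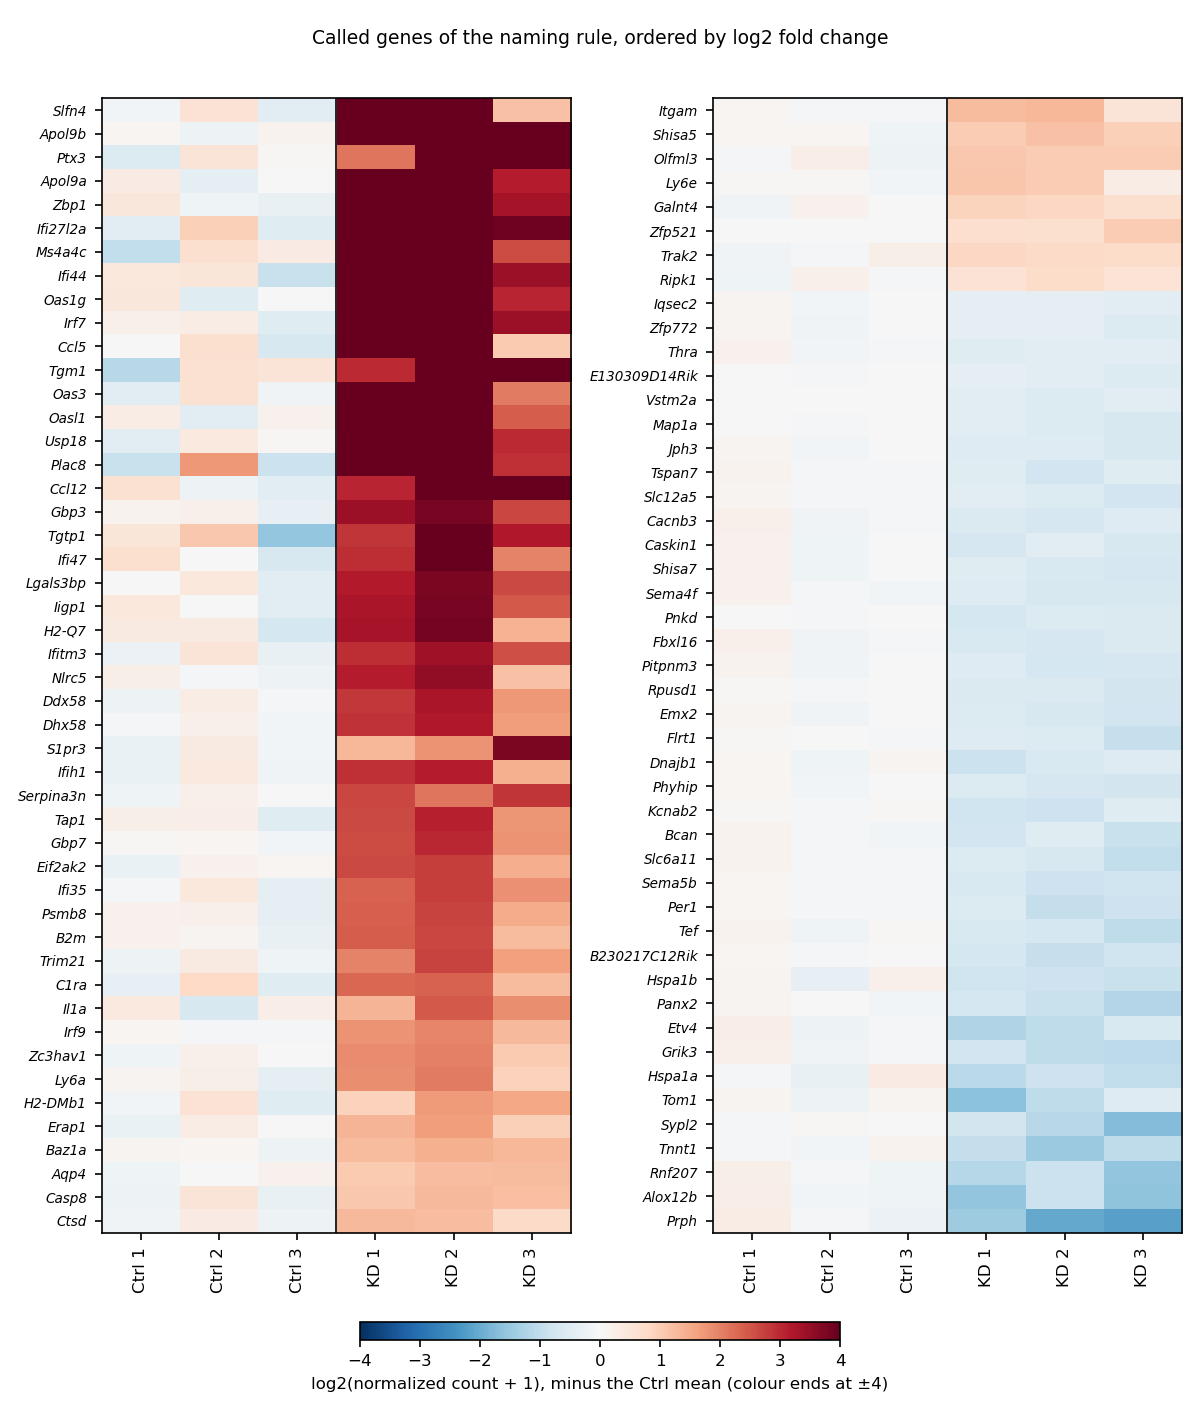
Heat map of 95 of the called genes that the naming rule chose, 56 higher and 39 lower, in order of log2 fold change, with each B6 library as a column and colour for log2(normalized count + 1) minus the Ctrl mean, ending at 4 in either direction. The rises are strong and mostly deepest in KD 2, with Ptx3, Tgm1, S1pr3 and Serpina3n deepest in KD 3, and the falls are pale and even over the KD libraries.

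Chaperones and clock genes were also among the falls. Of 16 genes of the unfolded protein and heat shock response 3 were called lower and 0 higher, all cytosolic heat shock genes. The list as a whole had a median of -0.01, with 7 estimates above 0 and 9 below. Of all genes tested, 0.877% were called lower. Hspa1a and Hspa1b, near-identical copies of Hsp70 whose reads may be shared, were at 711, 591 and 916 in Ctrl and 343, 414 and 371 in KD and at 937, 697 and 1003 in Ctrl and 500.1, 492 and 469 in KD, changes of -0.95 ± 0.21 and -0.83 ± 0.18. Dnajb1, their co-chaperone, was at 1972, 1670.3 and 2014 in Ctrl and 1046, 1224 and 1315 in KD, a change of -0.63 ± 0.12. Of 16 circadian clock genes 2 were called lower and 0 higher, at a median of -0.36. Per1, a repressor of the clock, was at 3616, 3276 and 3324 in Ctrl and 2333, 1775 and 1904 in KD, and Tef, an output factor, at 13795, 11082 and 13079 in Ctrl and 8230.0, 7679 and 6206 in KD, changes of -0.74 ± 0.16 and -0.76 ± 0.16. Times of day at which mice were killed were not given in the sources used here.

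Several risers stood outside the lists. Shisa5, an endoplasmic reticulum protein of the p53 response, was at 1404, 1402 and 1190.0 in Ctrl and 2694, 2976 and 2580.4 in KD, a change of 1.07 ± 0.14. Baz1a, a subunit of a chromatin remodelling complex, was at 57.4, 56.3 and 46.2 in Ctrl and 128, 145 and 134 in KD, and Galnt4, which starts O-glycans, at 169, 210.4 and 185 in Ctrl and 352, 331 and 296 in KD, changes of 1.36 ± 0.20 and 0.82 ± 0.12. Ly6e, an interferon-induced surface protein, was at 4692, 4684 and 4153 in Ctrl and 9714, 9157 and 5520.3 in KD, a change of 0.87 ± 0.19. In Baz1a and Galnt4 the KD libraries were nearly level, unlike in the antiviral genes.

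Groups that heterochromatin or its proteins are known to govern gave few calls in edgeR. Of 341 Zfp zinc finger genes 1 was called higher, Zfp521 (0.81 ± 0.14), and 1 lower, Zfp772 (-0.41 ± 0.09), at a median of -0.08. Together these were 0.587%, against 2.64% of all genes tested. Estimates were below 0 for 235 and above 0 for 105. Every KD library was below every Ctrl library in 21.1%, against 16.2% of all genes tested, and above in 1.47%, against 12.6%. Settings that left out no single library called 0 to 2 higher and 0 to 10 lower. None of 24 clustered protocadherins or 23 canonical histone genes tested was called by edgeR (2 and 3 at an unadjusted p under 0.05), and DESeq2 called 1 histone gene lower. Of 8 tested genes of microRNA biogenesis 0 were called by edgeR (1 at an unadjusted p under 0.05) and 1 was called lower by DESeq2. Drosha and Dgcr8, the nuclear microRNA processor, were at 5039, 4650.0 and 5074 in Ctrl and 4254, 4313 and 4174 in KD and at 1553, 1373 and 1555 in Ctrl and 1333, 1355 and 1312 in KD, below Ctrl in every KD library, with adjusted p of 0.153 and 0.327. Cytosolic ribosomal proteins (0 of 78 called), respiratory chain genes (0 of 91), cholesterol synthesis genes (0 of 16) and glucocorticoid targets (0 of 10) also gave no calls by edgeR, with 7, 4, 0 and 1 members at an unadjusted p under 0.05. DESeq2 called 3 ribosomal protein genes higher and 2 respiratory chain genes lower.

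D2 mice received the same viruses. The target was at 6871, 6504 and 7002 normalized counts in D2 Ctrl and at 5337, 4878 and 6941 in D2 KD, so that the library labelled D2 KD 3 lay within Ctrl. In edgeR 0 genes were called in D2, with 452 at an unadjusted p under 0.05, and DESeq2 called 1. The antiviral list, at a median of 3.45 in B6, was at 1.27 in D2. Medians were 2.64 and 0.66 for the GTPases, 2.02 and 0.48 for MHC class I, 2.07 and 0.27 for reactive astrocytes and 0.68 and -0.07 for homeostatic microglia, and that of the neuronal lists was -0.23 in B6 and -0.05 in D2. Other medians lay farther from 0 in D2, with -0.06 in B6 and -0.21 in D2 for hippocampal subfields, -0.01 and -0.16 for mature oligodendrocytes, -0.11 and -0.19 for homeostatic astrocytes and 0.17 and 0.26 for cholesterol synthesis. D2 Ctrl libraries were uneven, with antiviral sums of 445, 424 and 637 CPM, against 859, 1126 and 474 CPM in D2 KD. Reactive astrocyte sums were 1366, 728 and 2884 CPM in D2 Ctrl and 2184, 2173 and 1062 CPM in D2 KD. The part of D2 Ctrl 3 in the D2 medians was not tested. The difference of the KD effect between strains was called for 0 genes (0.0%) by edgeR, with a smallest adjusted p of 0.8215, while 937 genes (5.91%) had an unadjusted p under 0.05 and DESeq2 called 11. None of the B6 changes above was thus shown to differ from D2 in the main test.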

How the data were processed

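mRNA of whole hippocampus was sequenced by the authors from 12 mice. Per the labels and the study's methods, reads were filtered, trimmed and aligned to the genome of each mouse's strain and quantified with RSEM 1.2.12 and Bowtie2 2.2.0. Reads of a second run were joined for most libraries, and which libraries lacked them is not stated. RSEM's expected counts, deposited by the authors as gene-level estimates, carry no normalization. The deposited signal table holds the authors' DESeq2 normalized counts. Each value came out as a whole number, the expected count without its decimals, divided by a library factor (100% of 266508 values, tolerance 0.01), with factors of 0.584 to 1.35. Values by library in the text are these normalized counts.

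Expected counts of 22236 genes were rounded, filterByExpr, given the 4 groups, kept 15853 for testing, and these entered edgeR (version 4.0.16, under R 4.3.3; quasi-likelihood F-test with TMM factors, robust estimation and the installed default method) in 1 fit of all 12 libraries, as B6 KD minus B6 Ctrl. Benjamini-Hochberg adjusted p under 0.05 was called. A log2 fold change is followed by its SE, taken as its size divided by the square root of F and so approximate. The scripts were tested on simulated data. DESeq2 1.42.0 and limma-voom (limma 3.58.1) were among the alternatives. In the expected counts, 27 symbols turned into dates were restored from Ensembl identifiers, of which 21933 matched GENCODE M21 and gave the chromosome. All replicate pairs differed beyond sampling noise.

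The study's 6 B6 libraries and 49 gene lists were chosen with earlier results of these data known, and 4 further lists were drawn up after these values were seen. The naming rule took the target, in each of the 49 lists the called members with a mean of at least 1 CPM over the B6 libraries (up to 4 in each direction by size of change, or the first 2 tested members where fewer than 2 qualified), and, in each direction among called genes of that level with no overlap, the 12 smallest p-values, the 10 largest changes and the 5 most abundant. Of these, not all are reported here. Other genes given with values were chosen after their values were seen.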

Additional observations from a re-analysis of the deposited data

Results flagged for a closer look

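In 2 genes called in B6, KD and Ctrl libraries parted in opposite directions in B6 and D2. Both were chosen for that after their values were seen, and 38 of the 15853 genes tested parted in this way. Cxcl5, a chemokine that attracts neutrophils, had normalized counts of 10.7, 34.5 and 24.4 in Ctrl and 115, 215 and 49.02 in KD of B6 (log2 fold change 2.47 ± 0.56) and of 18.8, 13.7 and 27.7 in Ctrl and 6.33, 13.4 and 9.56 in KD of D2 (-1.03 ± 0.62). The difference between the strains, D2 minus B6, was -3.49 ± 0.84 (SE, edgeR adjusted p = 0.8215). Fam189a1, a membrane protein gene, had 3971, 3292 and 3413 in Ctrl and 2730.3, 2882 and 2461 in KD of B6 (-0.38 ± 0.08) and 2921, 2989 and 2931 in Ctrl and 3232, 3043 and 3114 in KD of D2 (0.09 ± 0.08), a difference of 0.47 ± 0.12 (edgeR adjusted p = 0.8215). Neither difference passed the test.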

How the results depend on the processing

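For KD against Ctrl in B6, against 418 genes called (279 higher and 139 lower), DESeq2 called 1688 (915 higher and 773 lower), the newer quasi-likelihood method 612 (420 higher), the B6 libraries alone 292 (78 lower), and the covariates of library total and choroid plexus score 0 each (0 higher and 0 lower; smallest adjusted p 0.0576 and 0.0597). Without 1 library the counts ran from 0 to 790 in all, from 0 to 491 higher and from 0 to 299 lower. They were 0 without B6 Ctrl 1, B6 Ctrl 3, B6 KD 1, B6 KD 2 or D2 Ctrl 1 (2231 or more genes then had an unadjusted p below 0.05), and 237 without B6 Ctrl 2, 45 without D2 Ctrl 2, 124 without D2 KD 1 and 673 without the library labelled D2 KD 3. A left-out library leaves its group with 2, and fewer libraries share the estimate of the spread. All other settings stayed within 1.5 times of these counts. For D2, DESeq2 called 1 gene and the fit without the library labelled D2 KD 3 called 1, so the counts without 1 library were 0 to 1. For the difference between strains DESeq2 called 11 genes, against 0. Causes of these differences were not tested.

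The difference in library total in B6 (KD minus Ctrl, -1.27 M) changed sign without Ctrl 1 (0.892 M), without Ctrl 3 (0.203 M) and without KD 2 (3.81 M), over a range of -5.002 M to 3.81 M. The difference of Hp1bp3 ran from -3698 to -2596 normalized counts without 1 library and -0.56 on the scale of log2(TMM CPM + 1). Ttr became -0.30 with the choroid plexus score as a covariate, a score that contains it. No other named gene changed sign in any setting. Truncated counts were added after the data were seen. No paired analysis was possible because the labels give no replicate numbers that the groups share.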
